A study of Mus musculus with 9 samples.

Results

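Neurotrophic factors are secreted or endoplasmic reticulum proteins that keep neurons alive and shape their connections, and several of them act on the dopaminergic neurons of the substantia nigra. GDNF and neurturin each bind a GPI-anchored co-receptor, GFRα1 or GFRα2 by preference, and the pair engages the receptor tyrosine kinase RET. BDNF binds the receptor TrkB (Ntrk2) and neurotrophin-3 binds TrkC (Ntrk3), while MANF and CDNF form a separate family that resides largely in the endoplasmic reticulum. The 10 genes described here are the ligands Bdnf, Gdnf, Nrtn, Cdnf and Manf and the receptors Ret, Gfra1, Gfra2, Ntrk2 and Ntrk3, a list matched by symbol to the GENCODE M21 annotation, out of 55450 genes in the count files. All 10 had an identifier and all 10 passed the filter on low counts, so each was tested in every comparison.

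The libraries were made from RNA of manually dissected nigral tissue of male mice, 5 weeks after a bilateral stereotactic injection of a lentivirus whose insert, under the Ef1a promoter, is switched on only in cells that hold Cre. Each group had 3 libraries. The CTR libraries came from CX3CR1-CreERT2 mice, in which tamoxifen activates Cre in cells that use the Cx3cr1 gene such as microglia, with a vector that carries GFP (described in the methods as destabilized GFP). The CX3 libraries came from the same Cre line with a Synuclein-expressing vector, and the DAT libraries from DAT-Cre mice, in which Cre follows the dopamine transporter gene, with the Synuclein-expressing vector. CX3CR1-CreERT2 mice received 75 mg/kg tamoxifen for 4 days. The age at injection is given as 8 weeks in one place and as 9 weeks for the purchased mice in another. DAT and CTR therefore differ in vector, Cre line and tamoxifen, and these cannot be told apart in that comparison, whereas CX3 and CTR share line and drug. CX3 and DAT share the vector but differ in Cre line and tamoxifen, which cannot be told apart there either. Nothing in the sources used here says that each library is a separate animal, so p-values measure the spread between libraries, which may be technical. In bulk tissue, fewer cells of a type and less RNA per cell cannot be told apart.

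Reads counted on genes ranged from 21592817 to 39475428 per library, and a floor of 3 counts stood at 0.0779 to 0.151 CPM (counts per gene relative to the TMM-scaled library size), counting error only. The tissue label was checked against defining markers: Th and Slc6a3, the genes of tyrosine hydroxylase and the dopamine transporter, had 81.6 and 130.0 CPM in CTR, 101 and 195 in CX3, and 68.4 and 91.1 in DAT. The injected sequence is human, so mouse counts do not check it. Tissue composition differed between the groups in ways that touch several results below. Summed over the 9 astrocyte markers, CTR held 7351 to 7370 CPM, CX3 4872 to 5088 and DAT 5314 to 5465. Gfap (2369, 1181 and 1065 CPM in the same order) and Aqp4 (927, 522 and 517) fell most. The 8 pan-neuronal markers summed to 4554 to 4578 in CTR, 4657 to 4780 in CX3 and 6516 to 6611 in DAT, while the 10 microglia markers were highest in CTR at 791 to 801, against 553 to 561 in CX3 and 543 to 558 in DAT. Cx3cr1 itself had 102 CPM in CTR, 44.6 in CX3 and 83.4 in DAT. T cell markers were also highest in CTR (57.4 to 57.7 CPM summed over 8 genes) and lowest in DAT (13.9 to 15.3), with CX3 at 44.9 to 49.5. Markers of neighbouring tissue and of other cell types moved as well. Forebrain excitatory neuron markers summed to 135 to 146 CPM in CTR, 166 to 172 in CX3 and 310 to 324 in DAT. Hypothalamic markers summed to 13.2 to 14.2, 26.3 to 27.7 and 56.0 to 58.3 in the same order. Fibroblast and meningeal markers summed to 181 to 182, 149 to 158 and 313 to 321. Oligodendrocyte markers were lowest in DAT at 14889.8 to 15834.3, against 20570.1 to 20646.5 in CTR and 21781.5 to 22155.4 in CX3. Choroid plexus markers (7 genes, mostly Ttr) summed to 49.2 to 52.0 CPM in CTR, 1498 to 1608 in CX3 and 897 to 1068 in DAT. Pituitary markers summed to 61.5 to 64.1, 6.12 to 6.47 and 18.5 to 23.6 in the same order, and hindbrain and cerebellar markers were highest in DAT at 69.1 to 72.3, against 39.2 to 41.9 in CTR and 32.9 to 36.7 in CX3. Replicate 1 of CX3 and replicate 2 of DAT stood apart from the others of their group, with deviations from the group mean that followed transcript length (Spearman's rho across 14521 genes of -0.50 and -0.53, against -0.11 to 0.43 in the other 7 libraries). Groups were kept as labelled.

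Expressed per kilobase of exon (RPKM), the 10 genes spanned a wide range in every group, from Ntrk2 at 35.3 ± 0.570 in CTR (SD, n = 3) to Gdnf at 0.0649 ± 0.00598. The order in CTR was Ntrk2, Manf, Ret, Gfra1, Nrtn, Gfra2, Bdnf, Ntrk3, Cdnf and Gdnf. Within this order the libraries of Gfra1 and Nrtn, of Nrtn and Gfra2, and of Bdnf and Ntrk3 overlapped, while the other neighbours were separate. Manf lost its place after Ntrk2 in the other groups: Ret stood next to Ntrk2 in CX3 (12.9 ± 0.531 RPKM, overlapping Manf at 12.1 ± 0.318) and in DAT (17.3 ± 1.67, overlapping Gfra2 at 15.7 ± 1.32), where Manf at 10.3 (9.40 to 11.7) overlapped Nrtn at 10.9 (9.48 to 13.8). The Nrtn mean in DAT was raised by replicate 2, and Nrtn was above Manf in replicates 1 and 2 and below it in replicate 3, so these neighbours have no clear order. Cdnf and Gdnf were the lowest in all 3 groups. These levels divide by the union of all annotated exons, which is 30170 bases for Ntrk3 and 1023 for Nrtn, and a gene whose long exons are little used is understated. Counts per gene also do not separate the full-length from the truncated forms of TrkB and TrkC.

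In CX3 against CTR, 6 of the 10 genes passed the test (edgeR, Benjamini-Hochberg over 20892 genes), against 30.5% of all genes tested. Gdnf, Nrtn and Ret were higher and Bdnf, Manf and Ntrk2 lower, where 14.0% of all genes were called higher and 16.5% lower. In DAT against CTR, 7 of 10 passed against 59.9% of all genes, with 6 higher (Nrtn and all 5 receptors; 32.0% of all genes) and Manf lower (27.9%). In CX3 against DAT, 8 of 10 passed against 58.9% of all genes, with Gdnf and Manf higher in CX3 (27.6%) and Bdnf and the 5 receptors lower (31.3%). The median log2 fold change of the 10 genes was 0.04, 0.33 and -0.43 in these comparisons, beside -0.00, -0.00 and 0.01 over all genes. CX3 and DAT are compared with the same CTR libraries, so their differences from CTR are not independent of each other.

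With changes tested against a fold of 1.2 rather than against no change (edgeR's glmTreat), 2 genes passed in CX3 against CTR (8.44% of all genes), Bdnf and Manf. In DAT against CTR 5 passed (39.4%), namely Manf, Ret, Gfra1, Gfra2 and Ntrk3, and in CX3 against DAT 6 passed (38.2%), Bdnf and the 5 receptors. The libraries of the 2 groups did not overlap for 8 of 10 genes in CX3 against CTR (49.3% of all genes), 7 in DAT against CTR (64.1%) and 9 in CX3 against DAT (61.0%).

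**Figure D1:**
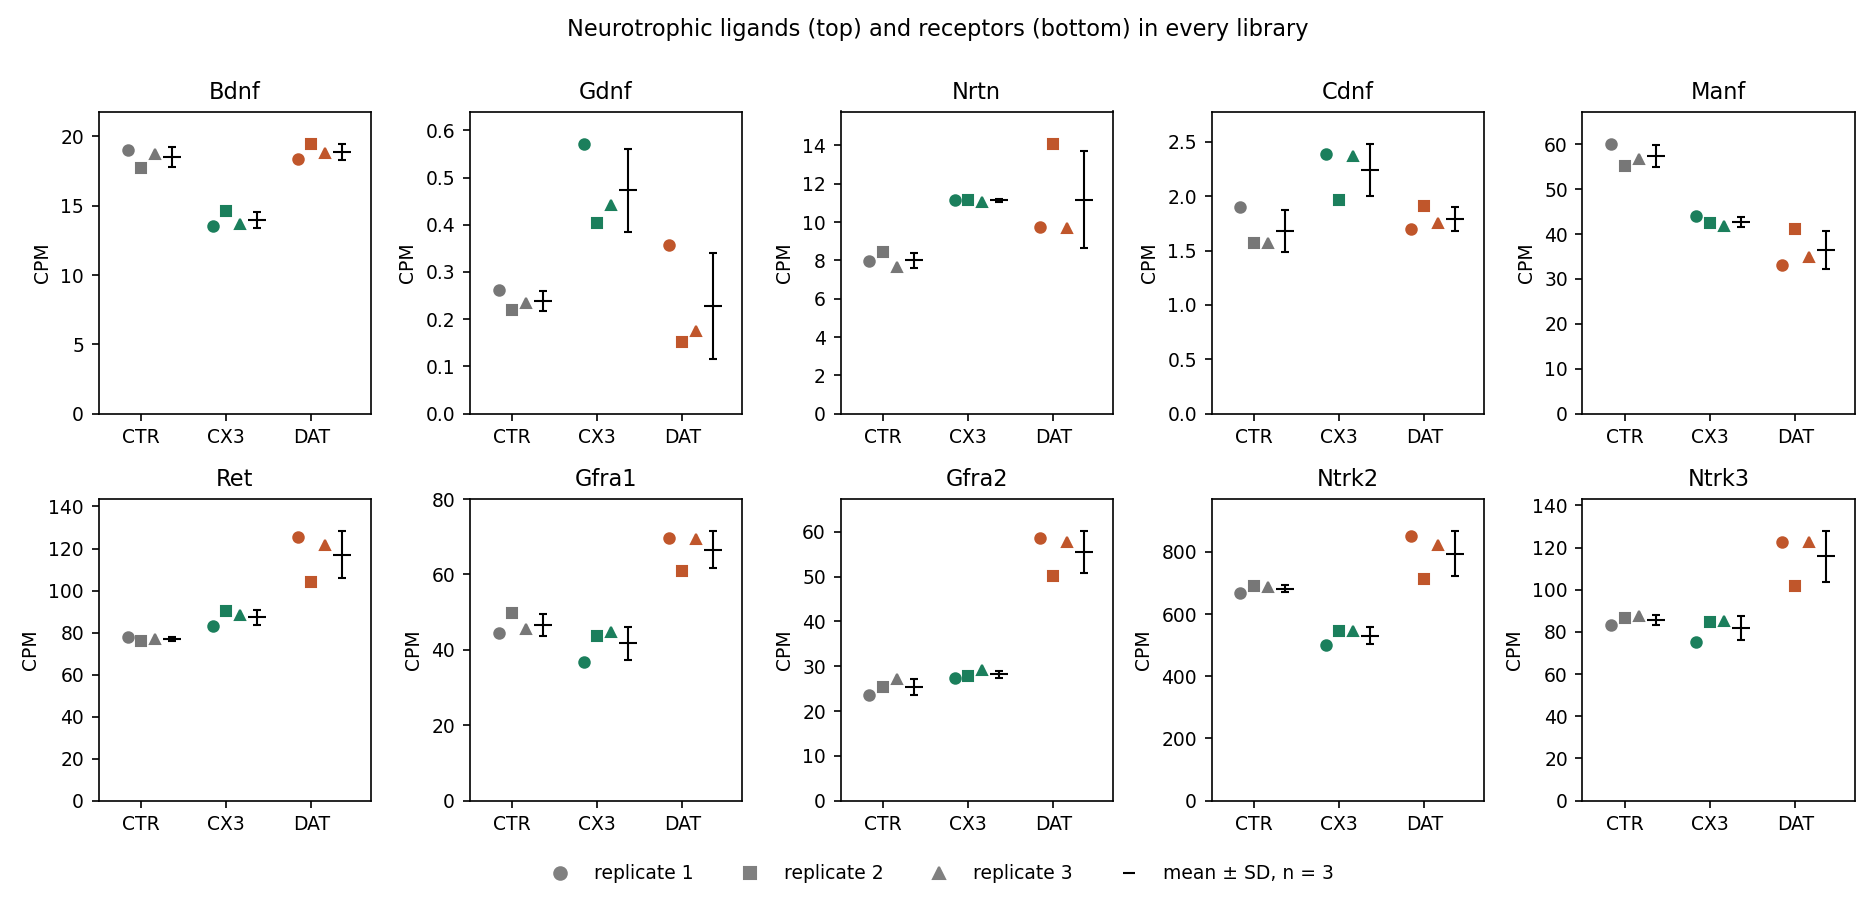
Level of each gene (y axis, CPM, from 0) in each library by group, with the mean and SD of 3 libraries in black. Bdnf is lower in the 3 CX3 libraries, Manf is highest in CTR, the 5 receptors are highest in DAT, and DAT replicate 2 lies above the other DAT libraries for Nrtn and Manf and below them for the receptors.

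Bdnf, the ligand of TrkB (chr2:109674700-109727007, plus strand, GRCm38), had 19.0, 17.7 and 18.8 CPM in the CTR libraries, 13.6, 14.6 and 13.7 in CX3 and 18.3, 19.5 and 18.8 in DAT. The CX3 libraries lay below all the others, and CTR and DAT overlapped. The log2 fold change of CX3 against CTR was -0.41 (SE 0.0605, edgeR adjusted p = 0.000175), that is 1.33-fold lower, and CX3 against DAT gave -0.43 (edgeR adjusted p = 3.24e-05). DAT against CTR gave 0.03 with a 95% interval from -0.11 to 0.16 (edgeR adjusted p = 0.740). Of the exon bases of Bdnf, 14.4% are shared with the antisense gene Gm45346. Since the reverse strand held 49.8% to 49.9% of strand-specific counts in every library, the counts do not tell strands apart, and reads of the shared bases count for neither gene when strands are pooled. Strand-specific counts, which keep part of those reads, gave -0.39 and -0.41 for CX3 against CTR.

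Gdnf, which signals through RET with GFRα1 (chr15:7810846-7837575, plus strand), was close to the limit of detection. It had 8, 8 and 7 counts in CTR, 22, 14 and 17 in CX3, and 13, 3 and 4 in DAT. CX3 held the 3 highest values and CTR and DAT overlapped, with DAT replicate 2 at the floor of 3 counts. The log2 fold change was 0.99 for CX3 against CTR (95% interval 0.23 to 1.75, edgeR adjusted p = 0.0489) and 0.92 for CX3 against DAT (0.13 to 1.71, edgeR adjusted p = 0.0443). DAT against CTR gave 0.07 with an interval from -0.85 to 0.98. The call against CTR was lost when any of the 6 libraries was left out (edgeR adjusted p from 0.0676 to 0.155) and in DESeq2 (adjusted p = 0.201). The call against DAT was lost without CX3 replicate 1, 2 or 3 or DAT replicate 2 or 3 (edgeR adjusted p from 0.0517 to 0.142) and in DESeq2 (adjusted p = 0.167), while without DAT replicate 1 the difference was 1.53 (edgeR adjusted p = 0.0142).

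Nrtn, the neurturin gene and preferred ligand of GFRα2 (chr17:56751325-56757530, minus strand), had 7.95, 8.43 and 7.67 CPM in CTR, 11.2, 11.2 and 11.0 in CX3, and 9.73, 14.1 and 9.70 in DAT. All 6 libraries with the Synuclein-expressing vector lay above all 3 CTR libraries, and DAT replicate 2 lay far above the other DAT libraries. The log2 fold change against CTR was 0.47 for CX3 (SE 0.117, edgeR adjusted p = 0.00755) and 0.45 for DAT (SE 0.122, edgeR adjusted p = 0.00523). Without DAT replicate 2, the DAT value was 0.27 (edgeR adjusted p = 0.00986). The difference of CX3 from DAT was 0.02 (95% interval -0.23 to 0.27), and without DAT replicate 2 it was 0.21 (edgeR adjusted p = 0.0370). Forward-strand counts gave edgeR adjusted p = 0.0824 for CX3 and 0.0529 for DAT.

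Cdnf (chr2:3513030-3526376, plus strand), the relative of Manf, had 1.90, 1.57 and 1.57 CPM in CTR, 2.39, 1.96 and 2.37 in CX3 and 1.70, 1.91 and 1.76 in DAT. The CX3 libraries were the highest 3, by a small margin over DAT replicate 2 and CTR replicate 1, and no comparison passed the test. The log2 difference of CX3 from CTR was 0.42 (95% interval 0.09 to 0.75, edgeR adjusted p = 0.0513), which was past the threshold without CTR replicate 1 (adjusted p = 0.0495) or CX3 replicate 2 (adjusted p = 0.0421), with size scaling alone (adjusted p = 0.0314) and with a stricter filter (adjusted p = 0.0441). CX3 against DAT gave 0.34 (edgeR adjusted p = 0.0812), and passed with size scaling alone (0.53, adjusted p = 0.00932), with the stricter filter (0.41, adjusted p = 0.0327) and in forward-strand counts (0.60, adjusted p = 0.0401). Its interval against CTR in DAT ran from -0.28 to 0.44. Within a library, Cdnf had 2.92 ± 0.217 counts per 100 of Manf in CTR, 5.24 ± 0.558 in CX3 and 4.94 ± 0.258 in DAT (SD, n = 3, no test), a ratio that no scaling between libraries alters.

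Manf, an endoplasmic reticulum protein released under stress of that compartment (chr9:106838312-106891979, minus strand), had 60.1, 55.2 and 56.7 CPM in CTR, 43.9, 42.5 and 41.7 in CX3, and 33.1, 41.1 and 34.8 in DAT. Every CTR library lay above every other library, and every CX3 library above every DAT library. The log2 fold change was -0.42 for CX3 against CTR (SE 0.0674, edgeR adjusted p = 0.000320) and -0.66 for DAT against CTR (SE 0.0699, edgeR adjusted p = 1.60e-06), that is 1.34-fold and 1.58-fold lower. CX3 stood 0.24 above DAT (edgeR adjusted p = 0.00897). Manf shares 9.25% of its exon bases with other genes, namely Dcaf1 and 4930524O07Rik on the opposite strand and Rbm15b on its own, and its level depended on how strands were counted. In CTR it was 57.3 CPM with strands pooled, and 91.9 and 91.7 in reverse-strand and forward-strand counts. The differences held their direction and call there, at -0.40 and -0.42 for CX3 against CTR and -0.74 and -0.79 for DAT against CTR.

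Genes of the endoplasmic reticulum stress response, the list to which Manf belongs by function, were mostly lower in CX3. Of 15 tested, 13 were lower in CX3 than in CTR and 0 higher by edgeR (0 also at an unadjusted p under 0.05 and by DESeq2), and the median log2 fold change was -0.51. Of all genes, 16.5% were lower and 14.0% higher there. In DAT against CTR, 10 were lower and 2 higher (27.9% and 32.0% of all genes), with a median of -0.39. In CX3 against DAT, 8 were lower and 1 higher (31.3% and 27.6% of all genes), with a median of -0.19. The 9 of 15 called in that last comparison lay near the 58.9% over all genes. The largest changes in CX3 against CTR were in Pdia4, a protein disulfide isomerase (49.5 against 98.8 CPM, log2 fold change -0.997, edgeR adjusted p = 1.04e-09), in the chaperone genes Hspa5 (353 against 621 CPM, -0.82) and Calr (313 against 551 CPM, -0.82), and in Herpud1, which takes part in the degradation of misfolded proteins (53.1 against 87.4 CPM, -0.72). In DAT against CTR the list split. Creld2 (20.0 against 34.1 CPM, -0.78), Sdf2l1 (20.3 against 34.0 CPM, -0.76) and Pdia4 (60.5 against 98.8 CPM, -0.71) were lower, whereas the chaperone gene Hyou1 was higher (172 against 119 CPM, 0.53). Hyou1 and Sel1l, a part of the degradation machinery, were the 2 that rose in DAT. Manf itself fell further in DAT than in CX3, while the median of the list lay closer to 0 in DAT. Astrocyte markers were lower alongside this list in CX3 against CTR (7 of 9 lower and 0 higher). In DAT against CTR 4 of them were lower and 1 higher, and these 5 of 9 lay near the 59.9% of all genes called. Microglia markers were lower in both (6 of 10 lower and 0 higher in CX3, 8 lower and 1 higher in DAT). The part of these cells in the changes of the list was not tested.

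**Figure D2:**
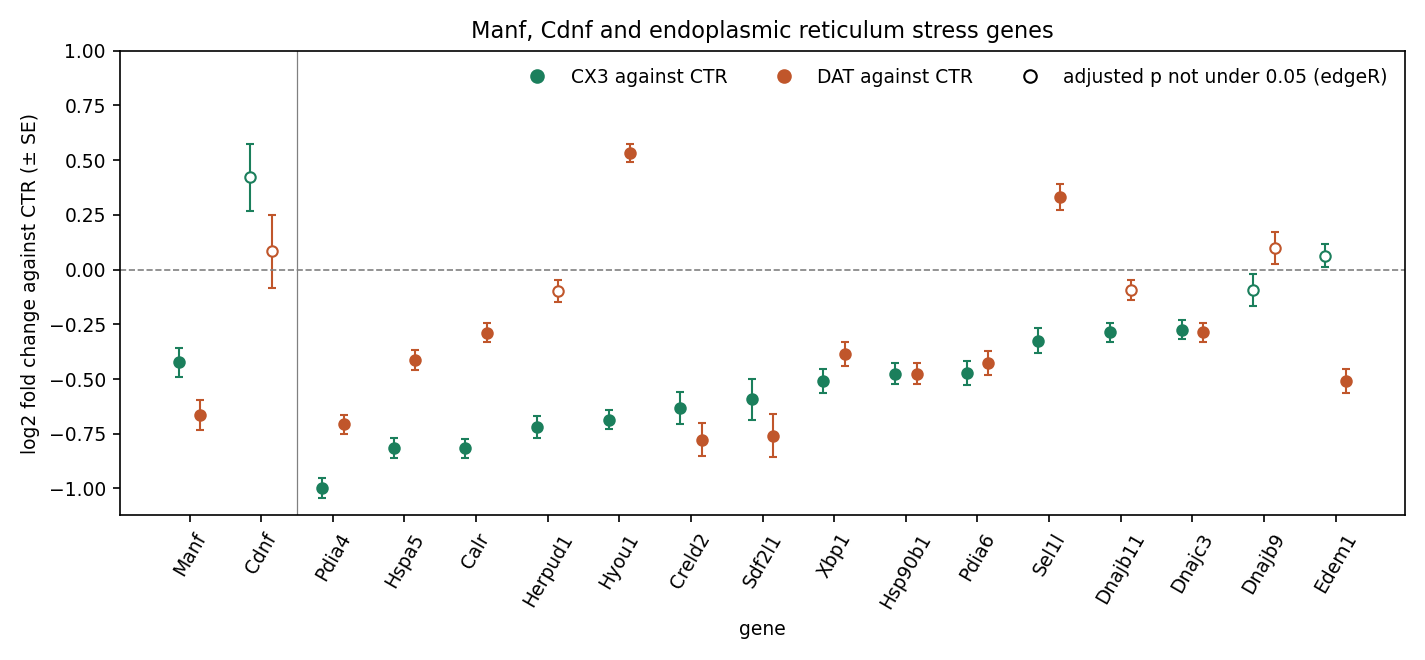
Log2 fold change against CTR (y axis, ± SE) of Manf, Cdnf and the 15 endoplasmic reticulum stress genes (x axis), for CX3 and DAT; open symbols did not pass the test. Manf and most of the list lie below 0 in both, and Cdnf lies above 0 without passing. Hyou1, Sel1l, Edem1 and Dnajb9 lie on opposite sides of 0 in CX3 and DAT. Hyou1 and Sel1l passed in both, Edem1 only in DAT (-0.51) and Dnajb9 in neither.

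Several of these genes carry the endoplasmic reticulum stress element in their promoters, a 19-base motif through which the response is switched on. RefSeq promoter windows of 300 bases (250 before and 50 after the start, GRCm38.p6) were searched on both strands for CCAAT, then 9 bases of any kind, then CCACG, a choice made after the values were seen. Of 32851 windows, 39 held it (0.119%). The listed stress genes belong to the response that this motif switches on, and they are counted as genes, not windows. Their share therefore cannot test the motif. Of the 15 stress genes with a window (16 listed), 6 held it. Hyou1 was not matched, and Ddit3 has a window but no counts used here. All 6 were lower in both comparisons against CTR, as were 16.5% of all genes in CX3 and 27.9% in DAT. But so were Pdia4, Sdf2l1 and Xbp1, whose windows hold neither form of the element, and Pdia4 had the largest decrease of the list in CX3. The sites are shown as the sequences that the motif search found, and the capitals mark the fixed letters of the motif.
Hspa5: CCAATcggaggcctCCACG
Hsp90b1: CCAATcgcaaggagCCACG
Hsp90b1: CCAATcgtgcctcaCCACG
Calr: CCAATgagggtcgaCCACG
Creld2: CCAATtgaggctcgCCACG
Pdia6: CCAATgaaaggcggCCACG
Dnajc3: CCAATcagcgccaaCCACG
The sites lie at chr2:34772025-34772043 on the plus strand (Hspa5), chr10:86705638-86705656 on the minus and chr10:86705533-86705551 on the plus strand (Hsp90b1), chr8:84847075-84847093 on the plus strand (Calr), chr15:88819520-88819538 on the minus strand (Creld2), chr12:17266491-17266509 on the plus strand (Pdia6) and chr14:118937827-118937845 on the plus strand (Dnajc3). The log2 fold changes of these 6 genes in CX3 against CTR were -0.82, -0.47, -0.82, -0.63, -0.47 and -0.27 in the order Hspa5, Hsp90b1, Calr, Creld2, Pdia6 and Dnajc3. In DAT against CTR they were -0.41, -0.48, -0.29, -0.78, -0.43 and -0.29. The shorter form of the element, ATTGG, then 1 base of any kind, then CCACG, was in 12 windows (0.0365%), among them those of Herpud1 and Dnajb11. Windows were given for 6 of the 10 neurotrophic genes (Bdnf, Gdnf, Nrtn, Cdnf, Gfra1 and Ntrk2; Manf, Ret, Gfra2 and Ntrk3 were not matched), and 0 of these 6 held either form. A match is a run of letters in a window and was not tested as a site in these tissues.

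Ret, the kinase that carries the GDNF family signal and a gene used by nigral dopaminergic neurons (chr6:118151745-118197718, minus strand), had 78.0, 76.1 and 77.1 CPM in CTR, 83.3, 90.3 and 88.3 in CX3, and 125, 104 and 122 in DAT. The groups did not overlap, in the order CTR, CX3 and DAT. DAT was 1.52-fold above CTR (log2 0.61, SE 0.0627, edgeR adjusted p = 1.36e-06), and CX3 lay 0.43 below DAT on the log2 scale (edgeR adjusted p = 4.00e-05). The smaller difference of CX3 from CTR, 0.18 (95% interval 0.05 to 0.31, edgeR adjusted p = 0.0432), was no longer past the threshold without CTR replicate 1, 2 or 3 or CX3 replicate 2 or 3 (edgeR adjusted p from 0.0975 to 0.145), in DESeq2 (adjusted p = 0.0719), with a replicate block (edgeR adjusted p = 0.0612), with DESeq2's size factors (0.0677), with at least 10 counts in every library (0.0539), in forward-strand counts (0.0777) or against a fold of 1.2. It was called in 6 of 17 alternatives.

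Set against the summed CPM of 12 dopaminergic neuron markers in the same library, Ret stood at 8.70%, 8.51% and 8.71% in CTR, at 7.58%, 8.16% and 8.14% in CX3, and at 17.5%, 14.4% and 16.9% in DAT (description, no test). CX3 lay just below CTR, and DAT lay far above both. The denominators themselves moved, from 885 to 897 CPM in CTR to 1084 to 1106 in CX3 and 716 to 726 in DAT. The 12 markers did not move together in DAT against CTR, where 4 were lower and 5 higher (median 0.03; 27.9% and 32.0% of all genes). Th, Slc6a3, Ddc and Aldh1a1, the largest part of the sum (317 against 441 CPM), were lower. Slc18a2, En1, Lmx1b, Kcnj6 and Slc10a4 were higher, so the ratio in DAT depends on the markers chosen. Relative to Th alone, Ret was 94.5%, 86.8% and 171% in CTR, CX3 and DAT, and relative to Slc6a3 alone 59.3%, 44.7% and 128%. Relative to the summed pan-neuronal markers the gap narrowed: Ret was 1.69% ± 0.0224 in CTR, 1.85% ± 0.0559 in CX3 and 1.78% ± 0.160 in DAT (SD, n = 3), and the DAT libraries, from 1.60% to 1.90%, spanned those of CTR.

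**Figure D3:**
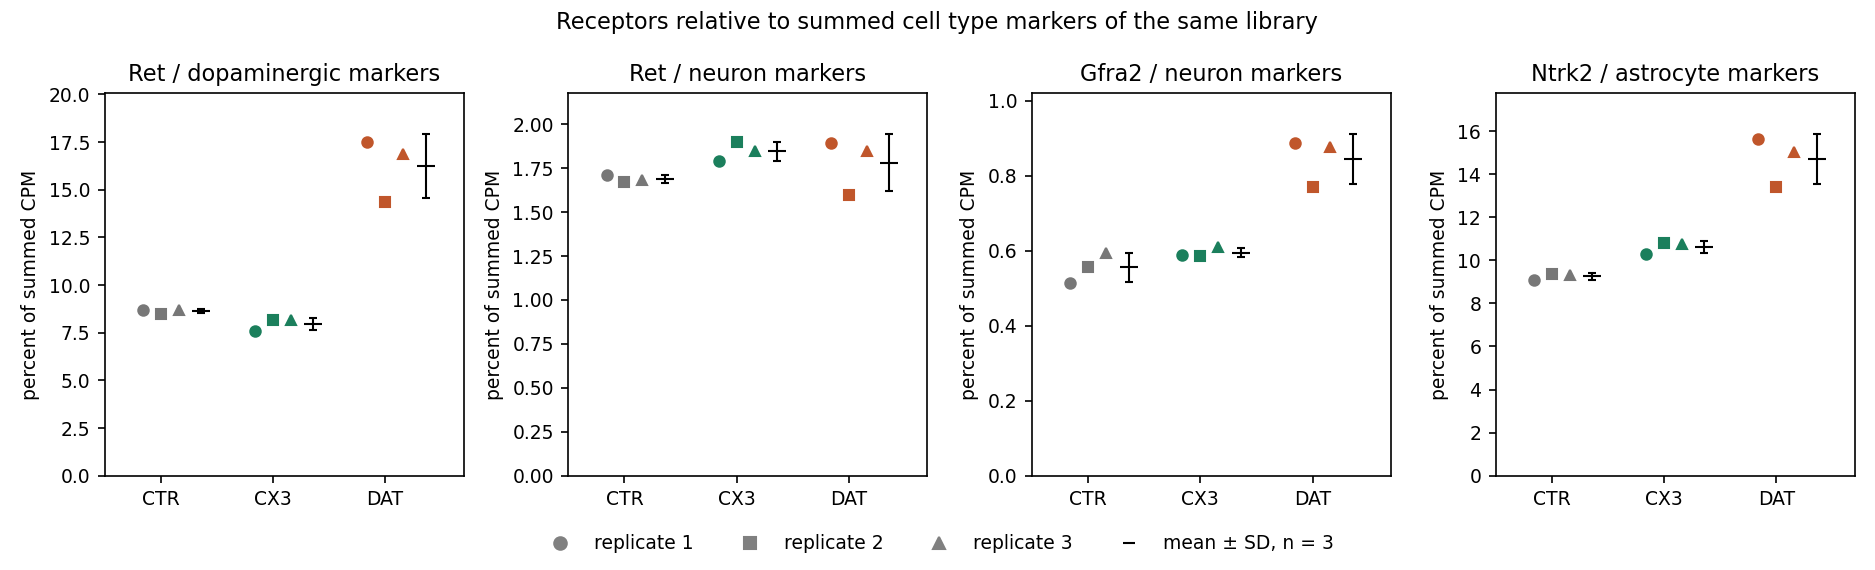
Receptor level as a percentage of summed marker CPM in the same library (y axes, from 0) by group, with the mean and SD of 3 libraries in black. Ret is highest in DAT relative to dopaminergic markers but overlaps CTR relative to pan-neuronal markers, while Gfra2 relative to neuron markers and Ntrk2 relative to astrocyte markers are highest in all 3 DAT libraries.

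Gfra1, the GDNF co-receptor (chr19:58235604-58455909, minus strand), had 44.4, 49.8 and 45.5 CPM in CTR, 36.7, 43.8 and 44.7 in CX3, and 69.6, 60.9 and 69.4 in DAT. DAT lay above all other libraries, and CX3 and CTR overlapped. The log2 fold change was 0.52 for DAT against CTR (SE 0.0775, edgeR adjusted p = 5.01e-05) and -0.68 for CX3 against DAT (edgeR adjusted p = 3.64e-06). CX3 against CTR gave -0.16 with a 95% interval from -0.33 to 0.01 (edgeR adjusted p = 0.138). That value passed when only these groups were fitted (-0.16, adjusted p = 0.0420), and it was -0.075 without CX3 replicate 1 and -0.068 in forward-strand counts, neither of which passed. As a share of summed neuron markers Gfra1 was 1.02% ± 0.0626 in CTR, 0.882% ± 0.0820 in CX3 and 1.01% ± 0.0686 in DAT. The antisense gene Gm16277 shares 7.60% of its exon bases.

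Gfra2, the neurturin co-receptor (chr14:70890120-70979838, plus strand), showed the largest difference among the 10 genes in DAT against CTR. It had 23.5, 25.4 and 27.2 CPM in CTR, 27.4, 27.9 and 29.1 in CX3, and 58.7, 50.1 and 57.8 in DAT. Each DAT library held over 1.5 times any other, the lowest at 50.1 CPM against a highest CX3 value of 29.1. DAT was 2.19-fold above CTR (log2 1.13, SE 0.0694, edgeR adjusted p = 6.22e-09), and CX3 against DAT gave -0.98 (edgeR adjusted p = 2.25e-08). CX3 against CTR gave 0.15 (95% interval -0.00 to 0.30, edgeR adjusted p = 0.125), and this was past the threshold when CX3 replicate 1 and DAT replicate 2 were both left out (0.17, edgeR adjusted p = 0.00811), when libraries were scaled by size alone (adjusted p = 0.0459) or when only these groups were fitted (adjusted p = 0.0294). Gfra2 also stayed highest in DAT as a share of neuron markers, at 0.845% ± 0.0656 against 0.556% ± 0.0393 in CTR and 0.596% ± 0.0123 in CX3.

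The balance between the co-receptors moved with these levels. Per 100 counts of Gfra1, Gfra2 had 54.6 ± 4.57 in CTR, 67.9 ± 6.05 in CX3 and 83.3 ± 1.01 in DAT (SD, n = 3, no test), and the ranges of the 3 groups did not overlap (51.1 to 59.7, 63.8 to 74.9, and 82.3 to 84.4). Per 100 counts of Ret, Gfra1 had 60.5 ± 4.42 in CTR, 47.7 ± 3.39 in CX3 and 57.0 ± 1.49 in DAT. Gfra2 per 100 of Ret was 32.9 ± 2.63, 32.3 ± 1.19 and 47.5 ± 0.662 in the same order, so CTR and CX3 overlapped there and DAT stood above both.

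Ntrk2, the TrkB gene, used by neurons and in truncated form by astrocytes (chr13:58806569-59133970, plus strand), had 669, 689 and 686 CPM in CTR, 501, 546 and 546 in CX3, and 850, 712 and 822 in DAT. The groups were separate and moved in opposite directions from CTR. CX3 was 1.28-fold lower (log2 -0.36, SE 0.0583, edgeR adjusted p = 0.000375), DAT was 1.17-fold higher (log2 0.22, SE 0.0583, edgeR adjusted p = 0.00448), and CX3 against DAT gave -0.58 (edgeR adjusted p = 1.01e-06). The increase in DAT did not pass when libraries were scaled by their size alone (0.08, edgeR adjusted p = 0.269), which moves the median of all genes in that comparison to -0.15, nor in forward-strand or reverse-strand counts (0.14 in both, edgeR adjusted p = 0.0514 and 0.0597) or with at least 10 counts in every library (edgeR adjusted p = 0.0524). The summed astrocyte markers were lower in both groups than in CTR, with the largest falls in Gfap and Aqp4. In DAT against CTR, Slc1a2, Slc1a3, Aldh1l1 and Aldoc did not pass and Sox9 was higher, so a share of the sum depends on the markers chosen. Ntrk2 was 9.26% ± 0.161 of the sum in CTR, 10.6% ± 0.284 in CX3 and 14.7% ± 1.15 in DAT (SD, n = 3). Against the summed neuron markers it was 14.9% ± 0.226 in CTR, 11.2% ± 0.415 in CX3 and 12.1% ± 1.03 in DAT. The direction of the DAT difference from CTR thus depends on the cell type used for reference, and the part of astrocytes and neurons in it was not tested.

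Ntrk3, the TrkC gene (chr7:78175959-78738012, minus strand), had 83.2, 86.5 and 87.8 CPM in CTR, 75.2, 84.9 and 85.3 in CX3, and 123, 102 and 123 in DAT. DAT lay above all other libraries and CX3 overlapped CTR. The log2 fold change was 0.43 for DAT against CTR (SE 0.0709, edgeR adjusted p = 0.000110) and -0.50 for CX3 against DAT (edgeR adjusted p = 2.76e-05), while CX3 against CTR gave -0.07 (95% interval -0.22 to 0.08, edgeR adjusted p = 0.498). As a share of summed neuron markers, which were higher in DAT, Ntrk3 was not higher there, at 1.88% ± 0.0474 in CTR (1.83% to 1.92%), 1.73% ± 0.0985 in CX3 (1.62% to 1.79%) and 1.76% ± 0.173 in DAT (1.56% to 1.87%). Per 100 counts of Ntrk2, Ntrk3 had 12.6 ± 0.183 in CTR, 15.4 ± 0.319 in CX3 and 14.6 ± 0.336 in DAT.

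For all 5 receptors DAT replicate 2, one of the libraries that stood apart, had the lowest value of its group, and CX3 replicate 1 had the lowest value of its own. Both libraries held relatively more counts on short transcripts, and the exons of the receptors add up to 3539 to 30170 bases. Across the 14521 genes with a mean log2 CPM of at least 1, the median log2 fold change depended on length. In DAT against CTR it was 0.15 for genes with 5000 exon bases or more and 0.05 for shorter ones. In CX3 against DAT, where the 5 receptors were lower, it was -0.16 and -0.02. Without these 2 libraries each call on the receptors in DAT against CTR and in CX3 against DAT was kept.

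**Figure D4:**
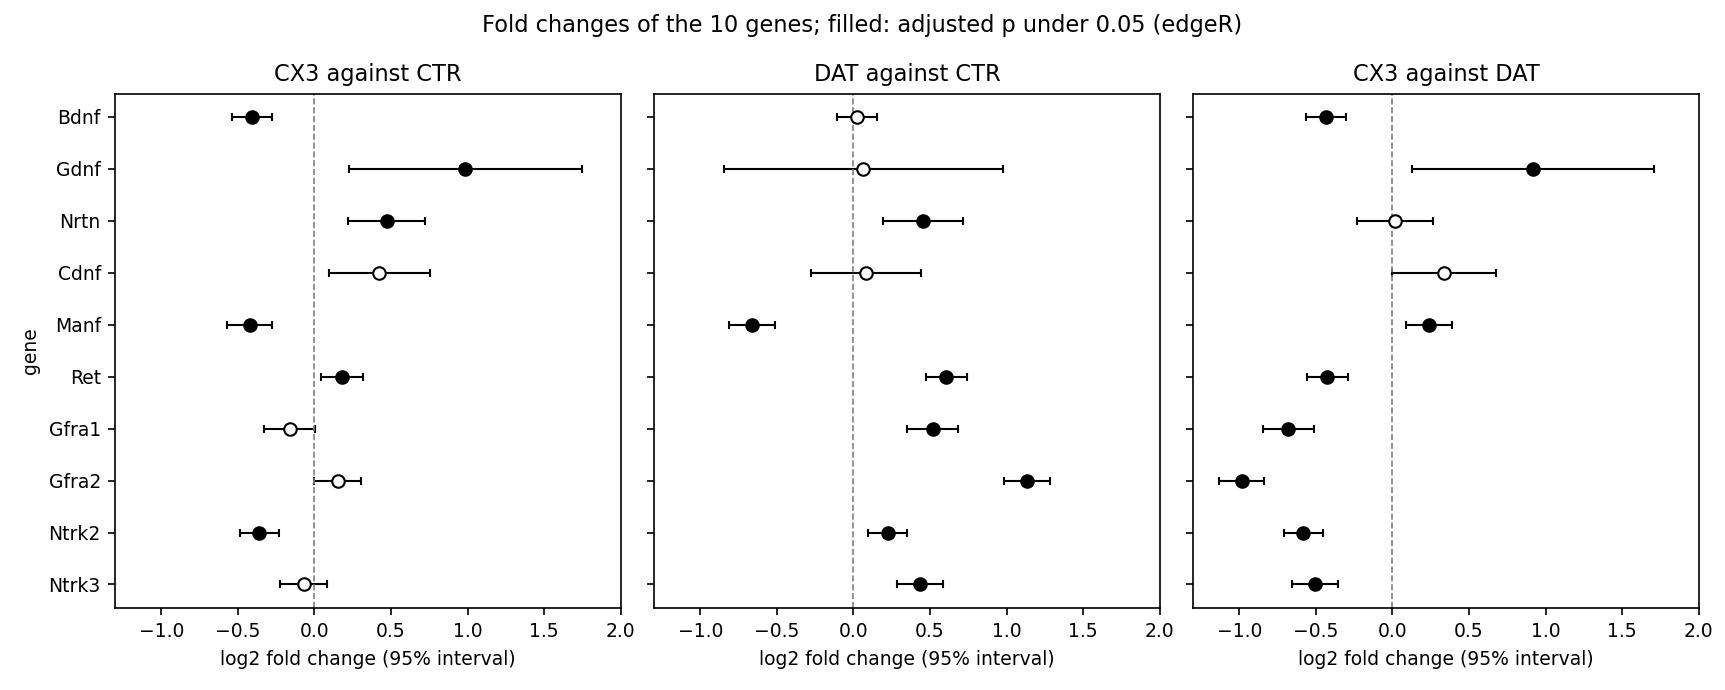
Log2 fold change (x axis) with its 95% interval for each gene (y axis) in the 3 comparisons; filled symbols passed the test at an adjusted p of 0.05 (edgeR). All 5 receptors lie above 0 in DAT against CTR and below 0 in CX3 against DAT, and Gdnf has the widest intervals.

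The other genes of these pathways were described from lists. Of 7 other neurotrophic ligands tested, 1 was higher in CX3 than in CTR by edgeR and 0 by DESeq2. By edgeR, 0 of the 7 passed in DAT against CTR, with 1 at an unadjusted p under 0.05 and 0 by DESeq2. Ntf3, the ligand of TrkC, was higher in CX3 than in DAT (1.98 against 1.07 CPM, log2 fold change 0.93, edgeR adjusted p = 0.00181), where the other ligands did not pass. The median over the 7 was 0.47, 0.26 and 0.40 in CX3 against CTR, DAT against CTR and CX3 against DAT. Over all genes, 30.5%, 59.9% and 58.9% were called in the same order.

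Of 10 other receptors, 5 were lower and 1 higher in CX3 against CTR (median -0.18), 7 were higher and 1 lower in DAT against CTR (median 0.55), and 9 were lower and 0 higher in CX3 against DAT (median -0.71; 0 higher also at an unadjusted p under 0.05 and by DESeq2). The share called over all genes was 30.5%, 59.9% and 58.9% in these comparisons. The p75 receptor gene Ngfr was higher in DAT than in CTR (7.67 against 3.74 CPM, 1.04), as were Cntfr, the ciliary neurotrophic factor receptor (120.0 against 71.7 CPM, 0.74), and the sortilin relative Sorcs2 (67.6 against 41.8 CPM, 0.70). In CX3 against CTR, Il6st, the shared gp130 subunit (141 against 211 CPM, -0.58), Sorcs2 (31.3 against 41.8 CPM, -0.42) and Ncam1, an alternative GDNF receptor (153 against 191 CPM, -0.32), were lower. Pan-neuronal markers rose alongside in DAT, with 7 of 8 higher than in CTR, against 32.0% of all genes.

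Of 7 genes that cut or sort the neurotrophin precursors, 2 were higher and 5 lower in CX3 against CTR (30.5% of all genes called), with 4 higher and 1 lower in DAT against CTR, where 59.9% of all genes were called and Plat and Pcsk7 did not pass (edgeR adjusted p = 0.606 and 0.252), and 0 higher and 5 lower in CX3 against DAT, where 58.9% were called (0 higher also at an unadjusted p under 0.05 and by DESeq2; medians -0.48, 0.27 and -0.44). Furin, a convertase of the precursors, was higher in DAT (39.4 against 23.5 CPM, 0.74), and Pcsk5 went in opposite directions, at 3.93 CPM in CX3 and 9.97 in DAT against 6.45 in CTR (-0.71 and 0.63). Sorl1, a sorting receptor, did likewise with 136 CPM in CX3 and 286 in DAT against 190 in CTR (-0.48 and 0.59).

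Among 23 adapters and feedback regulators of receptor tyrosine kinases, 9 were higher and 5 lower in CX3 against CTR (median 0.08), 18 were higher and 1 lower in DAT against CTR (median 0.41), and 3 were higher and 14 lower in CX3 against DAT (median -0.33). Beside these counts, 30.5%, 59.9% and 58.9% of all genes were called in the same comparisons. Dusp6, a phosphatase induced by ERK signalling, was the one that fell in DAT, and it fell in CX3 as well (30.1 in CX3 and 30.7 in DAT against 41.7 CPM in CTR, -0.47 and -0.44). The adapter gene Shc3 was higher in CX3 (48.9 against 29.1 CPM, 0.75), as was Etv4, a transcription factor downstream of RET (13.1 against 8.18 CPM, 0.68). In DAT the largest increases were in the adapters Dok5 (22.4 against 13.1 CPM, 0.77) and Shc2 (46.7 against 30.0 CPM, 0.64) and the feedback inhibitor Spry1 (10.5 against 6.88 CPM, 0.61).

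The genes whose profiles over the 9 libraries lay nearest to each member, by Euclidean distance between centred log2 CPM among 14520 or 14521 genes, were mostly of other kinds. For Manf they were P2ry12, a microglial purinergic receptor (distance 0.137), Hist1h2bc and Dbndd2. Ret was nearest to Bcl9 (0.0750), Myrip and Zfp827, and Gfra2 to Ephb4 (0.111), Atp2b2 and Tenm4. Nrtn was nearest to Pvalb, the parvalbumin gene (0.169), Rnd2 and Abhd17a, and Bdnf to Tmem47 (0.109), Cct3 and Txndc5. Gfra1 was nearest to Scaf8 (0.142), Ntrk2 to Hdlbp (0.0890) and Ntrk3 to Sema6d (0.0947). Cdnf and Gdnf had no close match, at 0.276 from Ccdc138 and 0.623 from Ccdc187. These distances rest on 9 libraries in 3 groups and are a description, with no test.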

How the data were processed

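Bulk mRNA libraries of nigral tissue were described by their labels as CTR, CX3 and DAT (3 each). The authors trimmed reads with Trimmomatic and aligned them to mm10 with STAR; the deposited counts per gene are not normalized, and their columns are those STAR writes, although featureCounts and DESeq2 are also named (versions not given in the sources used here). Libraries are described as made with a stranded kit from 1 μg of RNA (RIN at least 9), with 76-base reads. Rows that name no gene (unmapped, multimapping, no feature, ambiguous), 30.5% to 35.9% of all reads, were left out. Reads shared by overlapping genes are not counted for any of them.

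Counts of both strands together were tested with edgeR 4.0.16 in R 4.3.3 (quasi-likelihood, TMM, filterByExpr, all 9 libraries in 1 fit, two-sided, Benjamini-Hochberg over 20892 genes, threshold 0.05). CPM use TMM-scaled libraries, and RPKM the union of GENCODE M21 exons. Alternatives were DESeq2 1.42.0, other scalings, filters and strands, a replicate block, a fold of 1.2, fits of 2 groups and leaving out libraries. The script was tested on simulated data. The members and lists were chosen with earlier results of these data known. All 10 members were named, and of each pathway list at most 4 genes with the largest change among those that passed (some of these are not reported here); of 16 endoplasmic reticulum stress genes, 1 matched more than 1 identifier and was left out. Nearest genes were taken among those with a mean log2 CPM of at least 1, 3 per member. Figures used matplotlib.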

Additional observations from a re-analysis of the deposited data

How the results depend on the processing

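Of 500 alternative values of the members' log2 fold changes, 427 kept direction and side of the threshold, 44 lost the call, 13 gained one and 16 changed sign, the last all in values not called. Forward-strand counts left 3 members called in CX3 against CTR, with 5248 of 20378 genes called, and gave -0.053 for Bdnf and -0.14 for Cdnf in DAT against CTR, -0.0048 for Nrtn in CX3 against DAT, and a Ret share of dopaminergic markers of 8.52% in CTR. Tests against a fold of 1.2 called 1763, 8228 and 7989 genes in CX3 against CTR, DAT against CTR and CX3 against DAT, and 2 members in the first. Scaling by library size alone gave -0.12 for Bdnf, -0.079 for Gdnf and -0.063 for Cdnf in DAT against CTR. It moved the median of all genes to 0.04, -0.15 and 0.20, and the share of higher among called genes to 58.9%, 37.8% and 66.7%, from 45.9%, 53.4% and 46.8%. Bdnf in DAT against CTR was also -0.049 with at least 10 counts in every library, -0.025 in reverse-strand counts and -0.016 with only those groups fitted. Relative to Th alone, Ret was 94.5%, 86.8% and 171% in CTR, CX3 and DAT, and to Slc6a3 alone 59.3%, 44.7% and 128%, by the choice of denominator; the cause of the other changes was not tested.

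Leaving out 1 library gave 4638 to 5685, 11259 to 13389 and 11265 to 13254 called genes, 4 to 5, 7 and 7 to 8 called members, and Ret shares of 8.60% to 8.71% in CTR, 7.86% to 8.15% in CX3 and 15.6% to 17.2% in DAT. In these fits DAT against CTR ran from -0.029 to 0.027 for Bdnf and from -0.54 to 0.25 for Gdnf, and Nrtn in CX3 against DAT from -0.067 to 0.21. Without both CX3 replicate 1 and DAT replicate 2, an alternative chosen after seeing the data, 9102, 14054 and 13393 genes and 6, 7 and 8 members were called, with -0.016 for Bdnf in DAT against CTR and 0.21 for Nrtn in CX3 against DAT. A replicate block gave 5805, 12144 and 11955 genes and 4, 7 and 8 members, with -0.023 for Gdnf in DAT against CTR. Same-numbered libraries did not deviate together (correlations of -0.392 to 0.161, beside -0.357 to 0.420 for differently numbered ones). Whether a shared number stands for shared handling was not tested. DESeq2 called 4, 7 and 7 members, with 5398, 11861 and 11486 genes. Depth limited Gdnf, at 3 to 22 counts a library.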
